A study of Mus musculus with 45 samples.

Results

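The response of Lgr5-deficient fetal organoids to a low dose of Rspondin 2 was examined in 5 libraries: small intestine organoids of 2 Lgr5 KO embryos (cultures KO7 and KO2) and 3 WT embryos (cultures WT10, WT5 and WT30), each grown with 5 ng/ml of mouse Rspo2. They were taken by their labels from 30 organoid libraries (5 cultures, each with Rspo1, Rspo2 or Rspo3 at 5 or 100 ng/ml) in a series of 45 samples that also holds sorted intestinal stem cells. All 5 cultures came from E17.5 embryos of the Lgr5-DTReGFP line and were used at passage 4. The line carries a DTR-eGFP cassette (a toxin receptor joined to a fluorescent protein) in exon 1 of Lgr5 that disrupts the gene, and in KO embryos both alleles held it. Both groups shared a medium with EGF and noggin, and each culture descended from 1 embryo. The members are the 48305 genes outside chromosomes X and Y of the 52636 genes in the table, of which 16460 had at least 1 CPM (read count scaled to the depth of the library) in at least 2 of the 5 libraries and were tested.

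Rspondins are secreted ligands of the receptors Lgr4, Lgr5 and Lgr6. With their ligand bound, these receptors hold back the ubiquitin ligases Rnf43 and Znrf3, which would otherwise remove Wnt receptors from the cell surface, so that Wnt/β-catenin signalling is stronger. In the intestinal crypt this pathway maintains Lgr5+ stem cells and drives the Paneth cells beside them, which secrete alpha-defensins and lysozyme. The comparison asks how the organoids differ without Lgr5 when Rspo2 is scarce.

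The libraries held 24611200 to 27577200 reads on genes, so that 3 reads correspond to 0.122 CPM or less. All 10 epithelial markers were above 1 CPM, with a sum of 6022 to 6559 CPM in WT and 5524 to 6947 CPM in KO libraries. Of 15 mesenchymal markers 2 had a mean of 1 CPM or more (sum 13.8 to 19.8 CPM in WT and 11.8 to 12.3 CPM in KO), and 3 were at 0 in all 5 libraries. Of 14 blood, vessel and nerve genes 4 reached 1 CPM (sum 6.45 to 6.95 and 5.9 to 8.25 CPM). Xist, the RNA of the inactive X chromosome, was at 2134, 1839.1 and 1655.35 CPM in WT10, WT5 and WT30 and at 29.35 and 16.9 CPM in KO7 and KO2. Ddx3y, a Y-linked gene, was at 0, 0 and 0.15 CPM in WT and at 62 and 65.8 CPM in KO. All 3 WT cultures were thus female and both KO cultures male, and genotype and sex cannot be told apart in any value below. For genes off X and Y, their part in the differences was not tested.

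Lgr5 itself (chromosome 10) was at 15.9, 28.7 and 6.1 CPM in WT10, WT5 and WT30 and at 20.55 and 90.45 CPM in KO7 and KO2. The groups overlapped, and the difference of 1.54 on the log2 scale (limma adjusted p = 0.301, standard error 0.76) did not pass the test. The counts cover the whole gene, exons outside the disrupted part included, so that this value checks no label and says nothing of the protein.

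With an FDR of 0.05 in limma, 58 genes differed between KO and WT organoids (0.352% of the genes tested). In KO, 43 rose (0.261%) and 15 fell (0.0911%). The changes ran in size from 0.87 to 3.59 on the scale of log2(CPM + 1), used for every log2 value here, and 54 of the 58 were at least 2-fold. Of the 43 rises 7 were in genes under 1 CPM in all 3 WT libraries, which passed the filter on low values only through the KO libraries and so could be called only as rises. The median over all 16460 genes was 0.09, and values of gene groups are to be read against it. At an unadjusted p under 0.05 there were 3378 genes, 2379 of them higher in KO. In bulk libraries, fewer cells of a type and less RNA per cell cannot be told apart. A fit of all 30 organoid libraries in 12 groups, with the culture as a block, called 651 genes higher (3.51%) and 231 lower (1.24%) for the same contrast, among them 54 of the 58. Its log2 fold changes come from the same 5 libraries and equal those of the 5-library fit. Only the spread was taken from all 30. The shared calls are therefore no separate evidence, and their directions could not differ. Libraries of 1 culture come from the same embryo and deviated together, so the blocked counts are given beside each group below. The blocked fit still holds only 2 KO and 3 WT embryos. Its larger count comes with repeated libraries of these embryos, so a call with the block is not a call over more embryos. The 4 genes called in the 5 libraries and not in that fit were Itln1 (adjusted p = 0.0675), Emp2 (0.0536), Gm16559 (0.0502) and Pla2g12b (0.116).

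**Figure D1:**
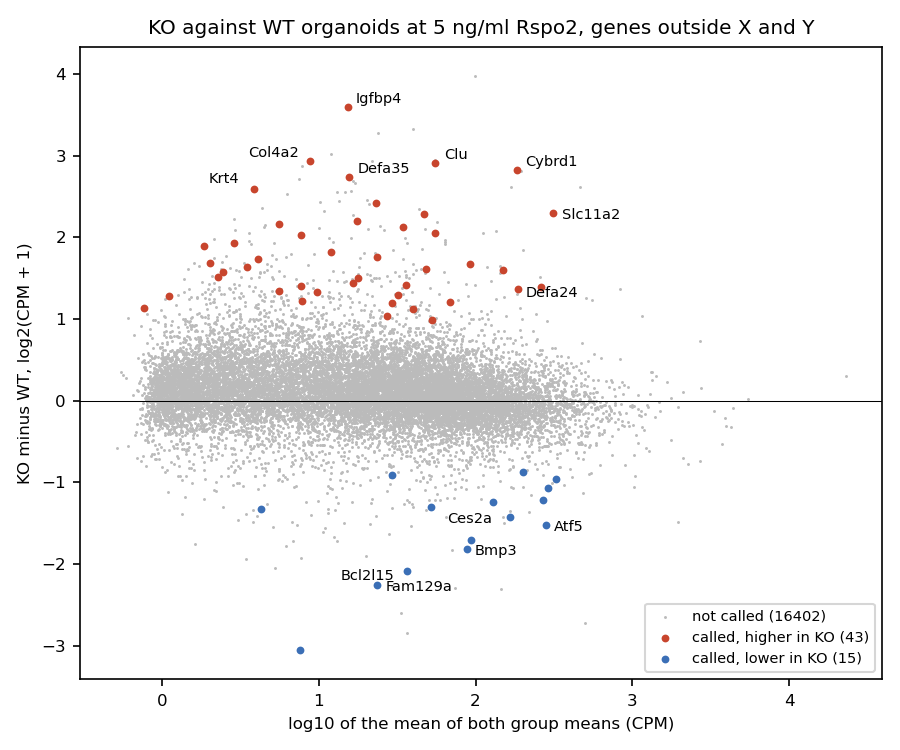
Difference between KO and WT organoids at 5 ng/ml Rspo2 in log2(CPM + 1), against the log10 of the mean level, for 16460 genes. Grey points did not pass the test, red points (43) rose and blue points (15) fell in KO. Some grey points lie as far from 0 as the coloured ones, Msln (3.98) and Axin2 (2.62) among them.

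The receptors and their partners showed no called change. None of 19 tested genes of the list of R-spondin receptors and co-receptors passed the test, and their median log2 fold change was 0.17. Lgr4, the receptor that remains, was at 276.7, 278.55 and 256 CPM in WT and 297.2 and 317.75 CPM in KO (0.18, standard error 0.10, limma adjusted p = 0.346). Fzd5, a Frizzled receptor, was at 592.1, 730.55 and 487.9 CPM in WT and 346.2 and 380.85 CPM in KO (-0.71, adjusted p = 0.131), and Sdc1, a syndecan, was at 0.17 (adjusted p = 0.561). Rnf43 was at 58.9, 82.2 and 36.6 CPM in WT and 165.5 and 189 CPM in KO (1.64, adjusted p = 0.0895), while Znrf3 was at 0.36 (adjusted p = 0.364). The blocked fit of 30 libraries called 5 genes of the list higher, among them Rnf43 (adjusted p = 0.0032), and 1 lower. Of 4 tested R-spondin and Wnt ligand genes none was called (median 0.58, and 0.15 to 1.01 with 1 culture left out), and the blocked fit called 1. That gene is Wnt3, the Wnt ligand made by Paneth cells, at 3.55, 3.15 and 2.8 CPM in WT and 8.35 and 10.15 CPM in KO (1.30, standard error 0.18, adjusted p = 0.0512 and 3.98e-04 with the block). Wnt2b was at -0.02 (adjusted p = 0.969) and Wnt4 at 0.46 (adjusted p = 0.355).

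Wnt target genes lay higher in KO organoids, but none of the 16 tested passed the test over the 5 libraries. Their median log2 fold change was 1.39. For 13 of them both KO cultures were above all WT cultures, against 26.2% of all genes tested, and for none were both below all WT cultures, against 13.5%. Axin2, a feedback inhibitor of the pathway, was at 44.2, 91 and 14.55 CPM in WT and at 138.4 and 433.4 CPM in KO. The groups did not overlap, but cultures of the same genotype lay far apart, and the log2 fold change of 2.62 had a standard error of 0.78 (limma adjusted p = 0.158). Ascl2, a transcription factor of crypt stem cells, was at 3.85, 4.45 and 1.95 CPM in WT and at 16 and 36.25 CPM in KO (2.56, standard error 0.40, adjusted p = 0.0696). Sp5, a direct Wnt target that codes for a transcription factor, was at 0.9, 1.6 and 0.55 CPM in WT and at 6.35 and 16.65 CPM in KO (2.53, standard error 0.40, adjusted p = 0.0715). In these 3 genes KO2 was the higher of the KO cultures and WT30 the lowest of the WT cultures. Sp5 passed the filter only with the KO libraries counted. Of the 16 targets, 14 passed it on the WT libraries alone, and their median was 1.39 as well. Ephb2, an ephrin receptor that sorts crypt cells, was at 1.04 (adjusted p = 0.149), and Fermt1, a kindlin, at 0.39 (adjusted p = 0.182). The blocked fit of 30 libraries called 11 of 18 targets higher, among them Axin2 (adjusted p = 0.0122), Ascl2 (0.00254), Sp5 (0.00815) and Ephb2 (0.0119), and none lower.

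Of 17 tested markers of intestinal stem cells 2 rose, with a list median of 1.23. Igfbp4, an IGF binding protein, was at 1.7, 1.75 and 0.8 CPM in WT10, WT5 and WT30 and at 38.4 and 19.85 CPM in KO7 and KO2. This was the largest called rise, at 3.59 on the log2 scale (limma adjusted p = 0.0161, standard error 0.33; chromosome 11, 99041244 to 99054392). Soat1, which esterifies cholesterol, went from 73.2 ± 4.98 CPM (SD, n = 3) to 226 ± 53.1 CPM (SD, n = 2), which is 1.60 on the log2 scale (limma adjusted p = 0.0235, standard error 0.16). Olfm4, a secreted glycoprotein used as the marker of these cells, was at 155.45, 227 and 36.2 CPM in WT and 375.8 and 1200.95 CPM in KO (2.61, standard error 0.82, adjusted p = 0.171). Not all markers lay higher: Nrn1 was at 24.15, 81.35 and 67.45 CPM in WT and 3.8 and 14.45 CPM in KO (-2.60, adjusted p = 0.129). With the block 11 of 18 markers were called higher, including Olfm4 (limma adjusted p = 0.0152), and 1 lower, Nrn1 (adjusted p = 0.0161). The 4 reserve stem cell markers held no call in either fit, with Lrig1 at 0.58 (adjusted p = 0.224), Hopx at 0.94 (adjusted p = 0.241) and Bmi1 at -0.31 (adjusted p = 0.303).

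Alpha-defensins, the antimicrobial peptides of Paneth cell granules, held the most calls of the 21 gene lists. Of 39 alpha-defensin genes, 12 were tested. Of those, 6 rose (0.261% of all genes did), and none fell. Defa26, Defa34, Defa5 and Defa27 were under 1 CPM in all 3 WT libraries and were tested only because the KO libraries were higher, so that these 4, and the calls of Defa26 and Defa34 among them, had only 1 possible direction. The other 8 passed the filter on the WT libraries alone. Of these 8, 4 rose, and log2 fold changes ran from 1.37 to 2.74 with a median of 2.04, both KO cultures lying above all WT cultures in each. Over all 12 the median was 1.77. The blocked fit called 13 of 16 higher and none lower. These genes lie as near-identical copies on chromosome 8, and reads can be split or lost between copies, so a value of a single copy is uncertain and the 12 are not independent measurements. The 250 bases before the start of 3 called copies and of Sp5 are shown, because they bear the letters that the Wnt effectors of the TCF family bind (RefSeq, GRCm38.p6, plus strand: chr8:21064788-21065037, chr8:21134400-21134649, chr8:21191323-21191572 and chr2:70474673-70474922). The motifs CTTTGAT and CTTTGAA were searched on both strands, and matches are in capitals (ATCAAAG is CTTTGAT read from the other strand).
Defa35: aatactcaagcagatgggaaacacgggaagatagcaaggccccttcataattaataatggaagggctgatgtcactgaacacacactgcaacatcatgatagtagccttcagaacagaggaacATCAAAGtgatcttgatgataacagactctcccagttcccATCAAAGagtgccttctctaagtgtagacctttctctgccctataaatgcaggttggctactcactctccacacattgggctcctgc
Defa30: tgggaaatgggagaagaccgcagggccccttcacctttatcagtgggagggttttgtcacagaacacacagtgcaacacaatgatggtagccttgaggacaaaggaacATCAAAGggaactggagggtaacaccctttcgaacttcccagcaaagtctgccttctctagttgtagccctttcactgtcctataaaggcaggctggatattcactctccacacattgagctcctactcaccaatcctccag
Defa31: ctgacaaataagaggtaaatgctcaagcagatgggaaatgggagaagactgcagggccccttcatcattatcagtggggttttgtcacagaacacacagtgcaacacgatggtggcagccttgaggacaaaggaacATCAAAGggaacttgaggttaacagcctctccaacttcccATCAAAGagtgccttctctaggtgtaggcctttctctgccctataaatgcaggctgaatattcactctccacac
Sp5: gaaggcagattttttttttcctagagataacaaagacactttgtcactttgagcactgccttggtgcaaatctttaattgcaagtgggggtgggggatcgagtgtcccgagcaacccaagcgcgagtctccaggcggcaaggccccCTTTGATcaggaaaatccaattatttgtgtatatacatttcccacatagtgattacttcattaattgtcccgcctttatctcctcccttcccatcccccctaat
Of the 4 tested alpha-defensins with such a window in RefSeq (3 of them called), 4 held CTTTGAT, against 3.23% of 27025 windows of all genes. The 3 windows shared 70.6 to 73.8% of aligned positions with each other. Sp5 held 1 match, and of 10 Wnt targets with a window 1 held CTTTGAT and none CTTTGAA. Of 27 genes that rose and had a window, 6 held a match to either motif, as did 1 of 11 that fell and 7.67% of all windows. Of those 6, 3 were alpha-defensins by name, and without genes of a Defa name 3 of 24 held a match. A match is a description of the sequence and does not show binding.

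Defa35 was at 3.7, 5 and 1.8 CPM in WT10, WT5 and WT30 and at 26.1 and 29.35 CPM in KO7 and KO2, or 2.74 on the log2 scale (limma adjusted p = 0.0408, standard error 0.32). Defa30 was at 22.15, 26.1 and 14.95 CPM in WT and 86.35 and 90.55 CPM in KO (2.05, standard error 0.23, limma adjusted p = 0.0359). Defa24 was at 111.3, 90.15 and 108.95 CPM in WT and 273.6 and 262.5 CPM in KO (1.37, standard error 0.12, limma adjusted p = 0.0161). In these 3 called copies the KO cultures were close to each other, which a call with 2 KO cultures favours. It is no trait of the family. KO7 and KO2 were at 9.5 and 16.6 CPM for Defa31, and at 18.25 and 42.2 CPM for Defa29, which was not called. In Axin2, Ascl2 and Sp5 the KO cultures lay apart as well. Per kilobase of exon, Defa24 had the highest mean level of the 12, with 247 CPM in WT and 640 CPM in KO. Defa31 went from 2.35 ± 0.541 CPM (SD, n = 3) to 13.1 ± 5.02 CPM (SD, n = 2) and Defa26 from 0.633 ± 0.34 to 5.15 ± 0.566 CPM. Defa34 was at 0.15, 0.1 and 0.05 CPM in WT, near the level of 3 reads, and at 1.35 and 1.5 CPM in KO. As the KO libraries alone brought Defa26 and Defa34 past the filter, their direction is no separate result.

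Of 8 other Paneth cell genes 1 rose, with a list median of 1.18. Itln1, the lectin intelectin 1, was at 156.95, 152.4 and 127.05 CPM in WT and 388.95 and 372.25 CPM in KO, or 1.39 on the log2 scale (limma adjusted p = 0.0161, standard error 0.12, and adjusted p = 0.0675 with the block). Lyz1, the lysozyme of Paneth cells, was at 160.9, 173.45 and 133.65 CPM in WT and 301.4 and 353.1 CPM in KO, without overlap (1.07, standard error 0.15, adjusted p = 0.0512 and 0.0654 with the block). Mmp7, the protease that activates alpha-defensins, was at 0.35, 0.3 and 0.15 CPM in WT and 8.15 and 2.85 CPM in KO (2.23, adjusted p = 0.0715), and it too was tested only through the KO libraries. Ang4, an antimicrobial ribonuclease, was at 2.85, 4.35 and 2.5 CPM in WT and 45.4 and 14.65 CPM in KO (2.69, adjusted p = 0.0745). Not all members lay higher. Nupr1, a stress-induced chromatin protein, was at 69.1, 59.2 and 116.4 CPM in WT and 58.1 and 28.3 CPM in KO (-0.93, adjusted p = 0.234), with both KO cultures below all WT cultures. Reg3g, an antimicrobial lectin, was at 73.2, 31.2 and 35.9 CPM in WT and 91.85 and 31.7 CPM in KO (0.31, adjusted p = 0.763), with overlap. The blocked fit called 3 of 9 Paneth genes higher, which were Mmp7 (adjusted p = 0.00913), Ang4 (0.00105) and Wnt3.

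**Figure D2:**
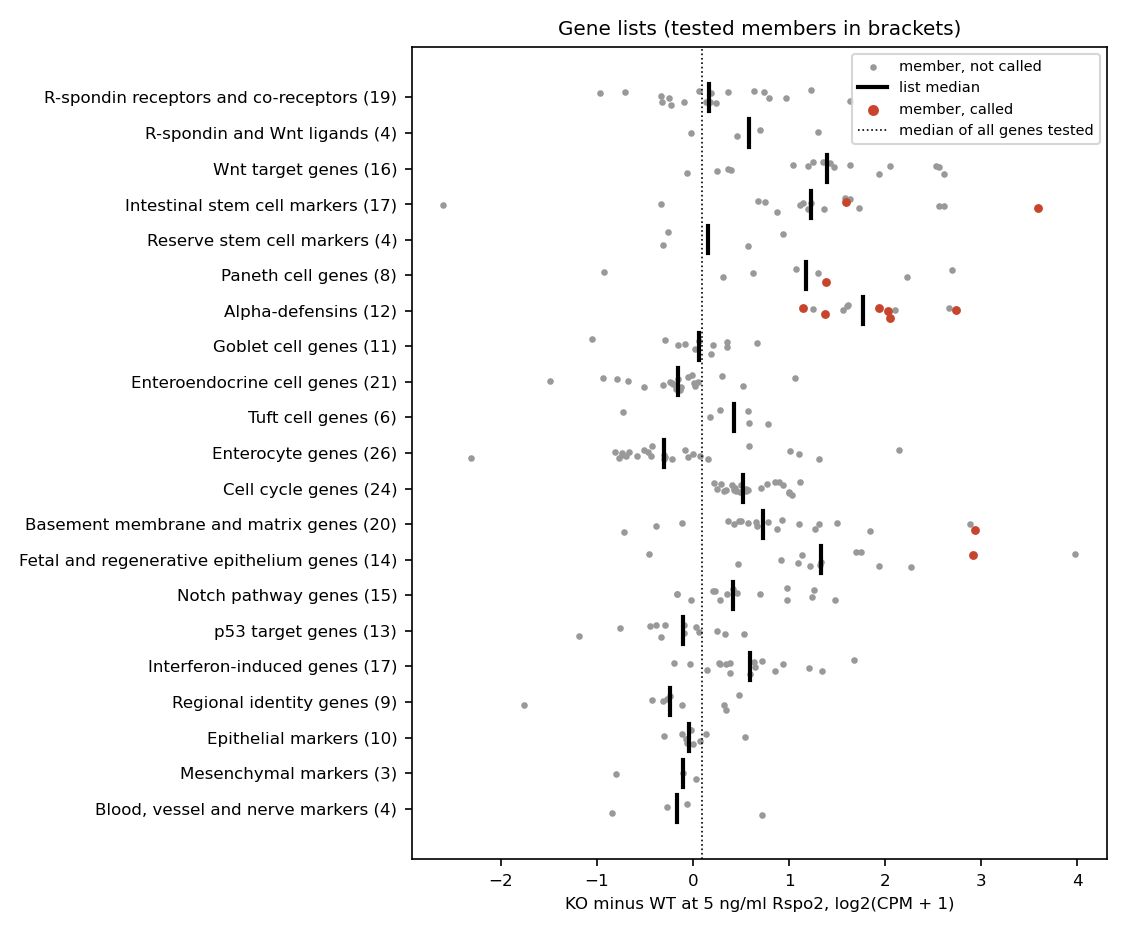
Log2 fold change (KO minus WT at 5 ng/ml Rspo2) of every tested member of 21 gene lists, with called members in red, list medians as black bars and the median of all genes (0.09) as a dotted line. The medians of alpha-defensins (1.77), Wnt targets (1.39) and fetal genes (1.33) lie farthest from it, and 6 of the called list members are alpha-defensins.

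The basement membrane and the fetal lists each held 1 called rise. Of 20 tested basement membrane and matrix genes, Col4a2, a collagen IV chain, was at 2.4, 1.05 and 0.55 CPM in WT and 20.2 and 12.4 CPM in KO (2.93, standard error 0.37, limma adjusted p = 0.0446). Its neighbour Col4a1, transcribed the other way and overlapping it, was at 2.55, 0.45 and 0.7 CPM in WT and 17.25 and 11.6 CPM in KO (2.88, standard error 0.40, adjusted p = 0.0545). The laminin chain Lama5 was at 88.95, 79.6 and 53.75 CPM in WT, 518.3 CPM in KO7 and 132.35 CPM in KO2 (1.84, standard error 0.54, adjusted p = 0.155). Lamb2 was at 0.93 (adjusted p = 0.166) and the lysyl oxidase-like gene Loxl4 at 1.50 (adjusted p = 0.145). With 1 culture left out, Lama5 ran from 0.86 to 2.82, Lamb2 from 0.44 to 1.42 and Loxl4 from 0.79 to 2.21. Other collagen IV chains did not lie higher, with Col4a3 at 1.45, 1.95 and 0.95 CPM in WT and 0.35 and 0.6 CPM in KO (-0.72, adjusted p = 0.161). Col4a4 was at 3, 2.45 and 2.15 CPM in WT and 1.85 and 1.55 CPM in KO (-0.38, adjusted p = 0.278). The list median was 0.73, and the blocked fit called 6 of 22 members higher, Col4a1 (adjusted p = 0.00668) and Lama5 (0.031) included, and none lower.
Of 14 tested genes of fetal and regenerative epithelium, Clu, the secreted chaperone clusterin, rose from 21.7, 10.5 and 7.55 CPM in WT to 104.65 and 91.05 CPM in KO (2.92, standard error 0.39, limma adjusted p = 0.0493). Msln, the surface protein mesothelin, was at 25.15, 4.4 and 5.95 CPM in WT, 291.95 CPM in KO7 and 83.05 CPM in KO2 (3.98, standard error 0.78, adjusted p = 0.0916). Ly6a, which codes for Sca-1, was at 0.45, 0.1 and 0.4 CPM in WT and 6.25 and 1.65 CPM in KO (1.75, adjusted p = 0.121), and it was 1 of 4 genes of this list under 1 CPM in all 3 WT libraries. The list median was 1.33, and with the block 7 of 15 members were called higher and none lower. Of the 14 genes, 8 passed the filter on the WT libraries alone, with a median of 1.27 (-0.46 to 3.98). In Lama5, Msln and Ly6a KO7 was above KO2, the reverse of the order in Axin2, Ascl2 and Olfm4.

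Among the other large rises, Slc11a2 and Cybrd1 code for the apical iron transporter and the ferric reductase of the enterocyte brush border. Slc11a2 was at 107.5, 113.4 and 94.2 CPM in WT and 473.75 and 567.8 CPM in KO, and had the smallest adjusted p of the called genes (2.30, standard error 0.13, limma adjusted p = 0.00169). It overlaps Gm5475 on the other strand, which was called as well (2.42), and whether counting used the strand is not given in the sources used here. Cybrd1 was at 32.3, 60.4 and 38.3 CPM in WT and 431.6 and 213.8 CPM in KO (2.82, standard error 0.36, limma adjusted p = 0.045). Krt4, a keratin of stratified epithelia, was at 0.35, 0.25 and 0.35 CPM in WT and 10.3 and 4.6 CPM in KO (2.60, standard error 0.30, limma adjusted p = 0.0408), and it passed the filter only through the KO libraries. The other genes of the 10 largest rises were Zfp503 (15.7 ± 4.3 CPM in WT against 78.5 ± 10.6 CPM in KO; SD, n = 3 and 2, here and in the values that follow), the tensin gene Tns4 (5.4 ± 0.695 against 29.5 ± 12.3 CPM) and Sptssb, a subunit of the enzyme that starts sphingolipid synthesis (1.43 ± 0.666 against 9.75 ± 1.63 CPM).

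The 10 largest falls among genes with a name began with Fam129a, at 44.3, 26 and 48.85 CPM in WT and 8.2 and 6.35 CPM in KO (-2.26, standard error 0.28, limma adjusted p = 0.0446). Bmp3, a ligand of the BMP family, was at 137.85, 141.35 and 128.35 CPM in WT and 28.6 and 49.9 CPM in KO (-1.82, standard error 0.22, limma adjusted p = 0.0438). Zbtb20, a transcriptional repressor, was at 149.85, 149.45 and 133 CPM in WT and 38.4 and 48.85 CPM in KO (-1.71, standard error 0.14, limma adjusted p = 0.0103). In each of the 3 the highest KO culture lay far under the lowest WT culture. The others included Npc1l1, the cholesterol importer (395 ± 50.8 against 188 ± 0.53 CPM), Pla2g12b (38.7 ± 1.71 against 20.1 ± 1.1 CPM, a call not made with the block) and the carboxylesterase gene Ces2a (222.65, 255.15 and 244.15 CPM in WT against 84.95 and 93.45 CPM in KO). Atf5, a stress-induced transcription factor, fell from 418 ± 79.8 to 145 ± 28.6 CPM, E2f2, a cell cycle transcription factor, from 183 ± 13.4 to 76.6 ± 4.88 CPM, and Efnb2, an ephrin ligand, from 378 ± 17 to 164 ± 38.3 CPM. Bcl2l15 fell from 60 ± 9.3 to 13.6 ± 4.81 CPM, and it overlaps the called gene Gm43064 on the same strand. Gm9770, outside the naming rule, had the largest called fall of all (17.7, 17.6 and 7.8 CPM in WT and 0.9 and 0.6 CPM in KO; -3.06). Its fall was not particular to low Rspo2. It was called as well with 100 ng/ml Rspo2 (-2.82) and with 5 ng/ml of Rspo1 (-3.03) or Rspo3 (-3.08).

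**Figure D3:**
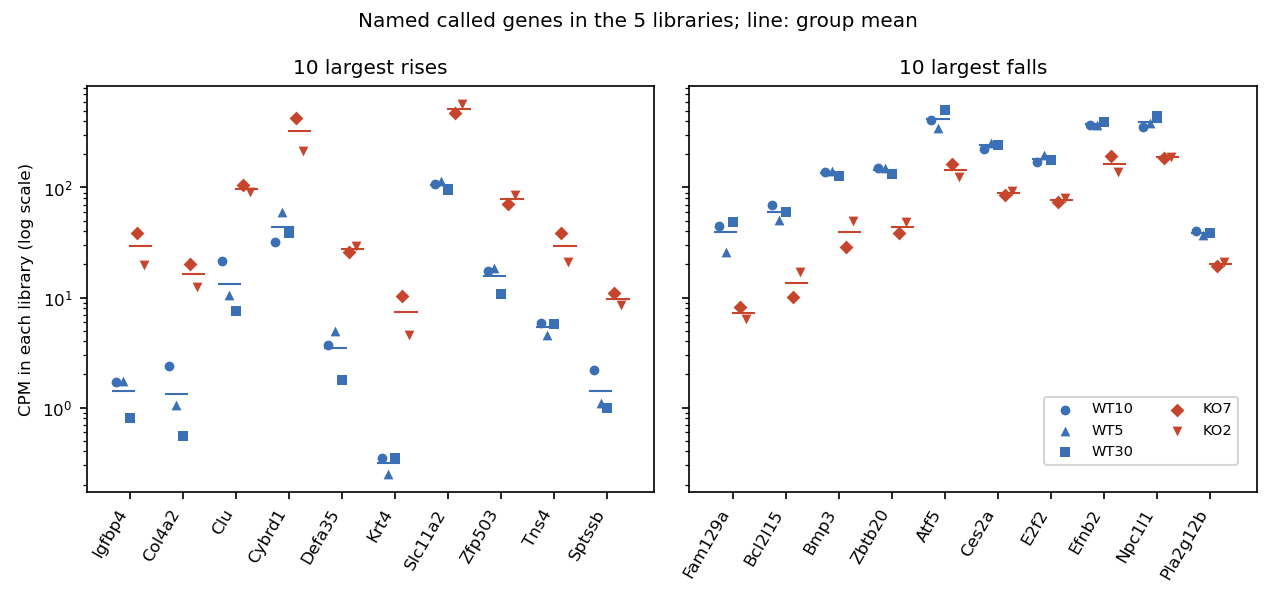
CPM (log scale) of the 10 largest named rises and falls in each of the 5 libraries, WT cultures in blue and KO cultures in red, with a line at each group mean. No WT culture overlaps a KO culture in any of the 20 genes, and the gap is wider for Igfbp4 and Krt4 than for Npc1l1 and Pla2g12b.

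Cell cycle genes held no call among 24 tested, with a median of 0.52. All 24 had a positive log2 fold change (0.22 to 1.11). The share of all genes with a positive value was not counted, and their median was above 0 as well (0.09). Of the 24, 16 were higher at an unadjusted limma p under 0.05, against 2379 of 16460 genes tested. The 24 were measured in the same 5 libraries and are not independent of each other. Mki67 was at 0.25 (adjusted p = 0.369), the topoisomerase gene Top2a at 0.55 (adjusted p = 0.141) and the helicase subunit gene Mcm7 at 0.77 (adjusted p = 0.124). The blocked fit called 3 of the 24 higher. Of 26 tested enterocyte genes none was called, and the median was -0.30. Sis, sucrase-isomaltase, was at 3171.15, 1896.9 and 4772.05 CPM in WT and 3169.6 and 1060.75 CPM in KO (-0.74, adjusted p = 0.471), with overlap. Apob, the apolipoprotein of chylomicrons, was at -0.70 (adjusted p = 0.144) and Mttp, which loads it with lipid, at -0.58 (adjusted p = 0.162). The blocked fit called 1 enterocyte gene, the peptide transporter gene Slc15a1, higher (13.3, 7.35 and 5.7 CPM in WT and 40.65 and 39.55 CPM in KO).

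The other secretory lineages held no call in either fit. The 11 goblet cell genes had a median of 0.06, with Fcgbp at -0.09 (adjusted p = 0.92), the mucin gene Muc2 at -1.06 (adjusted p = 0.256) and Tff3 at 0.06 (adjusted p = 0.908). Muc2 was at 1393.15, 967.5 and 1605.8 CPM in WT and 1074.55 and 359 CPM in KO, and with 1 culture left out its value ran from -1.85 to -0.27. The 21 enteroendocrine genes had a median of -0.16, with Chgb at -0.18 (adjusted p = 0.74), Reg4 at 0.30 (adjusted p = 0.544) and Chga at -0.68 (adjusted p = 0.323). The 6 tuft cell genes had a median of 0.43, with Trpm5 at 0.57 (adjusted p = 0.482), Il17rb at 0.28 (adjusted p = 0.575) and Ltc4s at 0.59 (adjusted p = 0.202). The alpha-defensin calls thus stood beside goblet, enteroendocrine and tuft cell lists in which no difference was detected with these libraries.

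Of the remaining lists none held a call over the 5 libraries. Notch pathway genes (15 tested) had a median of 0.42, with Notch1 at 0.21 (adjusted p = 0.563), the ligand gene Dll1 at -0.17 (adjusted p = 0.618) and the target Hes1 at -0.02 (adjusted p = 0.965), and the block called 5 of 16 higher. Among 13 p53 targets (median -0.10), Ccng1 was at -0.09 (adjusted p = 0.638), Cdkn1a at -0.33 (adjusted p = 0.514) and Trp53inp1 at -1.19 (adjusted p = 0.0521), and the block called 2 lower. Among 17 interferon-induced genes (median 0.59, and 0.05 to 1.05 with 1 culture left out), Stat2 was at 0.38 (adjusted p = 0.453) and Ifih1 at -0.03 (adjusted p = 0.956), and the block called 2 of 21 higher. Stat2 and Irf7 were higher in KO7 than in KO2, and Irf7 was at 39.8 CPM in KO7, 9.55 CPM in KO2 and 8.95, 7.2 and 7.8 CPM in WT. The 9 regional identity genes, which mark positions along the gut, had a median of -0.24, with Onecut2 at -0.31 (adjusted p = 0.221), Gata4 at -0.27 (adjusted p = 0.252) and Cdx2 at -0.12 (adjusted p = 0.625). Epithelial markers had a median of -0.04, with Krt19 at -0.08, Krt8 at 0.07 and Cdh1 at -0.06 (adjusted p = 0.843, 0.868 and 0.836). Of the mesenchymal genes 3 were tested (median -0.10), with Vim at -0.80 (adjusted p = 0.207), Tagln at -0.10 (adjusted p = 0.756) and Pdgfrb at 0.03 (adjusted p = 0.949). Of the blood, vessel and nerve genes 4 were tested (median -0.17). The macrophage gene Cd68 was at 0.71 (adjusted p = 0.152 and 0.0481 with the block), and Itgam, listed under 2 identifiers, was at -0.07 and -0.27. The block called Cd68 higher and 1 gene of this list, Pecam1, lower (adjusted p = 0.0152).

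The same 5 cultures were also grown with 100 ng/ml Rspo2, and the values at the 2 doses are given side by side. At 100 ng/ml 11 genes were called between KO and WT (0.0634% of those tested there), 2 of them among the 58. The 43 genes that rose at 5 ng/ml had a median log2 fold change of 1.64 there, against 0.08 at 100 ng/ml, and the 15 that fell had medians of -1.33 and -0.51. Since the 58 were chosen at 5 ng/ml, a smaller value elsewhere follows in part from the choice. The median of alpha-defensins was 1.77 at 5 and -0.50 at 100 ng/ml, that of Wnt targets 1.39 and -0.27, and that of stem cell markers 1.23 and -0.42. The median of fetal genes was 1.33 and 1.17. Col4a2 had log2 fold changes of 2.93 and 2.81, Slc11a2 of 2.30 and 1.76 and Cybrd1 of 2.82 and 2.33 at the 2 doses.
No gene passed a test of the difference between doses (0% of 17744 genes), with or without the culture as a block (0%). The unblocked fit had 1787 genes at an unadjusted p under 0.05 and the blocked fit 2690. The smallest adjusted p with the block was 0.0566, shared by genes that include Defa35 (difference 3.35), Defa30 (2.67), Defa26 (2.40) and Defa24 (1.91).

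Within single cultures, alpha-defensin levels at 5 ng/ml Rspo2 were below those at 100 ng/ml in WT and above them in KO. The difference (5 minus 100 ng/ml, median over the 12 genes, log2) was -2.25, -1.29 and -2.39 in WT10, WT5 and WT30 and 0.44 and 0.41 in KO7 and KO2. Each such value compares a pair of libraries and was not tested. Of the 12 genes, 4 were tested only through the KO libraries at 5 ng/ml, which favours this pattern. Defa24, which passed the filter on the WT libraries alone, was at -1.59, -1.05 and -1.45 in WT and 0.71 and 0.38 in KO. As a gene called at 5 ng/ml, it too was chosen by values that enter the difference. For Wnt targets the medians were -1.93, -1.50 and -2.98 in WT, -1.0 in KO7 and 0.04 in KO2, and for stem cell markers -2.04, -1.68 and -3.05 in WT, -1.01 in KO7 and 0.19 in KO2. In these medians of the dose difference the KO cultures lay close together for alpha-defensins and apart for Wnt targets. Lgr5 read -4.49, -3.06 and -6.01 (log2) in WT, -2.29 in KO7 and 0.27 in KO2. Fetal genes were lower at 5 ng/ml in all 5 cultures (-1.65 to -0.61), as was Col4a2 (-2.23 to -1.15). Over all genes the median was between -0.21 and 0.00.

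**Figure D4:**
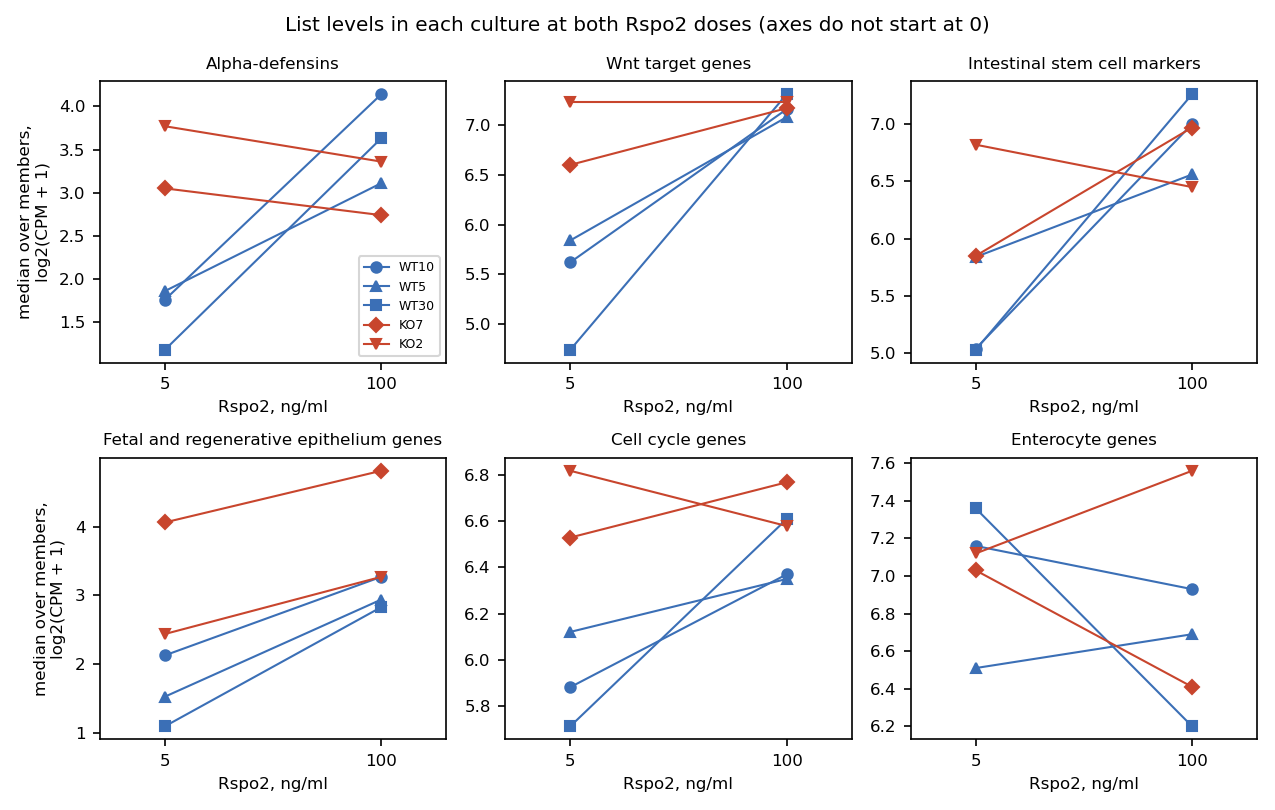
Median log2(CPM + 1) over the tested members of 6 lists in each culture at 5 and 100 ng/ml Rspo2, 1 line a culture, WT in blue and KO in red. The alpha-defensin lines go up with dose in the WT cultures and down in both KO cultures, the Wnt target levels lie apart at 5 ng/ml and between 7.08 and 7.31 at 100 ng/ml, and the fetal lines go up in all 5 cultures.

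At 5 ng/ml of the other ligands, 2 genes were called between KO and WT with Rspo1 (0.0125%) and 5 with Rspo3 (0.0317%), of which 1 each was among the 58. A call needs more than groups that do not overlap. Of the 43 genes that rose, both KO cultures were above all WT cultures in 26 with Rspo1 and 29 with Rspo3 at 5 ng/ml, and in 28 and 38 at 100 ng/ml, against 16 with 100 ng/ml Rspo2. Of the 15 that fell, both KO cultures were below in 8 and 10 at 5 ng/ml and in 12 and 14 at 100 ng/ml, against 3 with 100 ng/ml Rspo2. At 100 ng/ml the 43 had a median of 0.61 with Rspo1 and 1.00 with Rspo3, and the 15 medians of -1.13 and -0.83. The cultures are the same in each condition, so these counts are not independent of each other. At 5 ng/ml Rspo2 all 43 and all 15 were without overlap, so the genes were in effect chosen for it. Over all genes, 26.2% lay above and 13.5% below in this way at 5 ng/ml Rspo2. Such shares were not counted for the other conditions, so the counts have no background to be read against. The median of Wnt targets was 0.22 with Rspo1 and 0.05 with Rspo3, and that of alpha-defensins 0.21 and 0.63. Axin2 was at 14.8, 25.05 and 15.7 CPM in WT and 11.2 and 55.3 CPM in KO with Rspo1. With Rspo3 it was at 2.2, 4.6 and 3.65 CPM in WT and 3.25 and 3.5 CPM in KO, all below the 14.55 to 433.4 CPM seen with Rspo2. No difference between the KO effects was called without the block (0% for Rspo1 and 0% for Rspo3, with 746 and 1639 genes at an unadjusted p under 0.05). With the culture as a block, 10 genes differed from Rspo1 (0.0588%) and 57 from Rspo3 (0.334%). Igfbp4 was among both, with a KO effect of 3.59 with Rspo2, 1.01 with Rspo1 and 0.15 with Rspo3 (adjusted p = 0.0214 and 0.00545 for the differences). At 5 ng/ml of those ligands Igfbp4 was low in all 5 cultures, at 0.1 to 2.1 CPM with Rspo1 and 0.2 to 0.8 CPM with Rspo3. At 100 ng/ml its KO effect was 2.04 with Rspo1 and 2.14 with Rspo3 (adjusted p = 0.667 and 0.322), with neither called. Fam129a was also among both, at -2.26, 0.40 and -0.06 (adjusted p = 0.0462 and 0.0186). It was low in all 5 cultures with 5 ng/ml of the other ligands, so a fall in KO could hardly show there. Its levels were 1.7 to 2.85 CPM with Rspo1 and 1.05 to 2.9 CPM with Rspo3, against 26 to 48.85 CPM in WT with Rspo2. Sp5 differed from Rspo1 (adjusted p = 0.0214), and Ascl2, Soat1, Bmp3 and Ces2a from Rspo3 (adjusted p = 0.0491, 0.0221, 0.011 and 0.00548). With 5 ng/ml Rspo3 Ascl2 was at 0.05 to 0.2 CPM in all 5 cultures, so a KO effect could hardly show there. Equal concentrations of different ligands need not be equally active, so these values do not compare the ligands at equal strength.

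**Figure D5:**
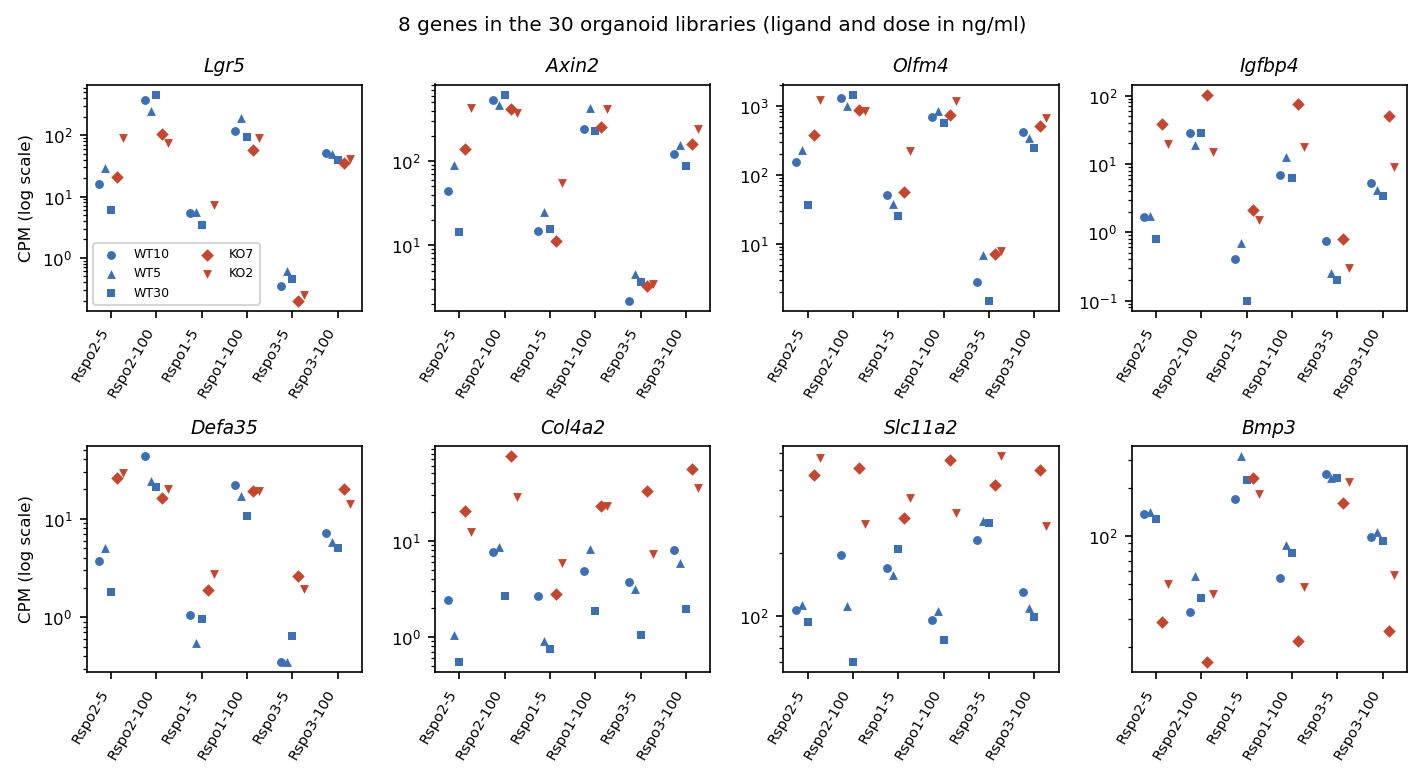
CPM (log scale) of 8 genes in the 5 cultures under each ligand and dose, WT in blue and KO in red. Axin2, Olfm4 and Defa35 lie above WT in both KO cultures at 5 ng/ml Rspo2 and below the WT cultures at 100 ng/ml, while Col4a2 and Slc11a2 lie above the WT cultures at both doses.

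Each autosome but chromosome 18 held called genes, with 11 on chromosome 8 (1.15% of those tested there), 6 of them alpha-defensins by name. Gm14851 (1.52, limma adjusted p = 0.0408), also called, lies between Defa35 and Defa30. It has no Defa name and is not counted with the family here. It was under 1 CPM in all 3 WT libraries. Chromosome 10, which carries Lgr5 and the knock-in, held 2, Gm9770 and Pla2g12b. None of 91 tested genes within 10 Mb of Lgr5 was called, and 1 of 209 within 20 Mb, which was Gm9770.
The calls rested on few cultures. Without WT10, WT5 or KO7 the count of called genes was 4, 4 and 2, without WT30 23 and without KO2 42.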

How the data were processed

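The 5 libraries, of 30 from organoids, were made with ribosomal RNA depletion. The submitters' processing notes name Trimmomatic 0.36, STAR 2.5.3a, HTSeq 0.9.1 and GRCm38, and whether counting used the strand is not given in the sources used here. The deposited file holds CPM, which the authors computed per gene and which step in units of 0.05. This step gave back the depth of each library (error of at most 0.0031% on simulated tables). Raw counts were not used here, so no count model was run. Intervals of counting error are not given, and CPM of 1 read was at most 0.0406.

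Genes that reached 1 CPM in 2 or more of the 5 libraries (16937, or 16460 outside X and Y) were tested on log2(CPM + 1) with limma 3.58.1 in R 4.3.3 (empirical Bayes with a trend, Benjamini-Hochberg adjustment), and called at an adjusted p of at most 0.05. A pseudocount of 1 understates changes of low genes. X and Y genes stayed in the fit and out of the counts (13 more were called there). Differences of KO effects were fitted in the 10 libraries of both conditions. Positions came from the GRCm38 annotation (52489 of 52636 identifiers matched, 147 did not), and promoters from RefSeq. Python 3.11.15 with numpy 2.4.6, pandas 2.3.3 and matplotlib 3.10.9 made the summaries and plots.

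Each culture is 1 embryo, so libraries of 1 culture are paired across conditions. Their deviations from the group means correlated at 0.179 to 0.623, and fits with the culture as a block (consensus correlation 0.336 over 30 libraries) were alternatives. Simulated data of this layout had 1 fixed dispersion for all genes and no added difference between cultures of the same genotype. On them the 5-library fit called 94.9% of genes changed by 1 (log2) and 99% of those changed by 2. It called 8 of 16732 unchanged genes. Neither the shares nor this count carry over to the real libraries, least of all to genes whose cultures of the same genotype lay apart. In the 5 libraries Axin2 (2.62, standard error 0.78), Olfm4 (2.61, standard error 0.82) and Msln (3.98, standard error 0.78) were not called. The share of real changes that the fit misses was not tested, so a gene without a call is not shown to be unchanged.

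The members and gene lists were chosen with earlier results of these data known. Named are Lgr5, the 10 largest called rises and falls with a gene name, the called members of each list (or the 3 most abundant where none was called), 10 genes the study names, and the 5 largest differences between conditions each way. Rnf43, Znrf3, Nrn1, Nupr1, Reg3g, Defa5, Defa27, Defa29, Col4a3, Col4a4, Mmp7, Ang4, Msln, Ly6a, Slc15a1, Irf7, Pecam1, Emp2 and the genes with a Gm name were named after their values were seen. Alternatives were another pseudocount, filter, scaling and variance model, all 30 libraries, and each culture left out. The sorted cell samples were not used here, and some items are not reported here.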

Additional observations from a re-analysis of the deposited data

Results flagged for a closer look

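With the culture as a block, the KO effect at 5 ng/ml Rspo2 differed from that at 5 ng/ml Rspo1 in 10 genes and from that at 5 ng/ml Rspo3 in 57 genes by a test of the difference itself. Against Rspo1 the KO effect with Rspo2 was higher by 2.87 for Sp5, 2.76 for Slc5a4b, 2.58 for Igfbp4, 2.51 for Krt4 and 2.15 for Dpep1 on the log2 scale, and the difference for Fam129a was -2.66. Against Rspo3 it was higher by 3.45 for Igfbp4, 2.53 for Reg3b, 2.46 for Ascl2, 2.11 for Sorcs2 and 2.04 for Stra6l. Some of these genes were near the floor in all 5 cultures with the other ligand, where a KO effect could hardly show. Krt4 was at 0 to 0.15 CPM with 5 ng/ml Rspo1, and Ascl2 at 0.05 to 0.2 CPM with 5 ng/ml Rspo3. Fam129a was low with both, at 1.7 to 2.85 CPM with Rspo1 and 1.05 to 2.9 CPM with Rspo3. For them the difference largely repeats the value with Rspo2. The largest differences the other way were -2.20 for Fam129a, -1.82 for N4bp2l1, -1.65 for Trib3, -1.62 for Bcl2l15 and -1.58 for G0s2.

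In 10 of the 58 called genes the change from 100 to 5 ng/ml Rspo2 had 1 sign in all 3 WT cultures and the opposite sign in both KO cultures. These are the 6 called alpha-defensins and Itln1, Tbx3, Prr15 and Zbtb20. Itln1 changed by -2.34, -1.54 and -2.34 in WT10, WT5 and WT30 and by 0.58 and 0.14 in KO7 and KO2 (log2). For Tbx3 the values were -0.55, -0.66 and -0.78 in WT and 0.1 and 0.01 in KO, and for Zbtb20 1.18, 0.69 and 0.71 in WT and -0.06 and -0.45 in KO. The 58 genes were chosen by their difference at 5 ng/ml, and the same libraries enter the dose change. Opposite signs are therefore favoured by the choice. Some of the KO changes were very small, and the share of all genes with this pattern was not counted. The opposite signs were not tested, and no gene passed the test of the difference between doses.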

How the results depend on the processing

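The count of 58 called genes depended on the setting, and its direction did not for any of the 58 that could be tested under each. It was 34 with a pseudocount of 0.1, 8 without a filter on low values, 19 with a mean of at least 10 CPM, 37 without a trend, 838 with all 30 libraries and 882 with the culture as a replicate block. In both fits of 30 libraries the directions were fixed, since the log2 fold changes come from the same 5 libraries. Leaving out 1 culture gave 2 to 42 calls (4 without WT10, 4 without WT5, 23 without WT30, 2 without KO7 and 42 without KO2). With 1 KO culture left out, the lone KO culture is assumed to vary like the WT cultures. Of the 58, 36 were also called under median ratio scaling, which called 40 and moved the median of all genes from 0.087 to -0.014, 33 with a pseudocount of 0.1, and 13 of 51 without KO2. The difference between doses gave 0 calls with and without the replicate block, and 0 to 7 when 1 culture was left out (7 without WT5). The differences from Rspo1 and Rspo3 gave 0 calls each without the block and 10 and 57 with it. The causes were not tested.

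Values of some genes without a call changed sign. Under median ratio scaling Tff3 was at -0.06, Krt8 at -0.05 and Pdgfrb at -0.02. With 1 culture left out, the values ran from -0.05 to 0.4 for Sdc1, -0.16 to 0.11 for Wnt2b, -0.65 to 0.48 for Fcgbp, -0.3 to 0.42 for Tff3, -0.45 to 0.06 for Chgb, -0.04 to 0.65 for Reg4, -1.53 to 0.05 for Sis, -0.04 to 0.46 for Notch1, -0.45 to 0.11 for Dll1 and -0.29 to 0.26 for Hes1. They ran from -0.79 to 0.13 for Cdkn1a, -0.03 to 0.8 for Stat2, -0.36 to 0.3 for Ifih1, -0.34 to 0.19 for Krt19, -0.11 to 0.25 for Krt8, -0.18 to 0.06 for Cdh1, -0.24 to 0.03 for Tagln, -0.05 to 0.17 for Pdgfrb and -0.33 to 0.01 for Itgam. The medians of alpha-defensins (1.66 to 2.25), Wnt targets (1.05 to 1.75), stem cell markers (1.06 to 1.67) and fetal genes (0.99 to 1.95) were above 1 or close to it in each case. Other list medians ran from -0.3 to 0.48 for goblet, -0.36 to 0.02 for enteroendocrine, -0.63 to 0.05 for p53 and 0.05 to 1.05 for interferon-induced genes. The KO group held 2 cultures, of a sex other than the WT cultures.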

Other observations

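Among the called genes outside the lists, picked here after their values were seen, several code for transcription factors. Bhlha15, known as Mist1 and a regulator of secretory cells, was at 8.85, 8.75 and 7.55 CPM in WT10, WT5 and WT30 and 23.45 and 25.65 CPM in KO7 and KO2 (1.45, limma adjusted p = 0.025). Mecom (1.13), Tbx3 (1.22) and Atoh8 (1.69) rose as well. Atoh8 was under 1 CPM in all 3 WT libraries and passed the filter on low values only through the KO libraries.

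The following single genes belong to no list, and no pathway was tested with them. Hk2, a hexokinase, was at 37.6, 36.6 and 30.55 CPM in WT and 68.75 and 71.25 CPM in KO (0.99, limma adjusted p = 0.0484). Aldoc, an aldolase, was at 25.75, 22.95 and 21.45 CPM in WT and 68.3 and 78.55 CPM in KO (1.61, limma adjusted p = 0.0125). Hif1a, a transcription factor of the response to low oxygen, was at 255.95, 242.7 and 274.3 CPM in WT and 151.85 and 129.25 CPM in KO (-0.87, limma adjusted p = 0.0499). The calls of Hk2 and Hif1a lay just inside the threshold of 0.05. The secreted guidance genes Sema3b (1.04) and Sema3f (1.34) rose too.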
